A study of Mus musculus with 15 samples.

Results

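The major urinary protein (Mup) cluster is a tandem array of closely related genes on mouse chromosome 4. It was taken here as the mm9 window of chromosome 4 from 59900001 to 62000000 (2100 kb), with 1 Mb on either side as flank. The window was chosen by position, not by a measured value. Of 346085 chromatin domains listed in all maps together, 128 touched the window, 59 the proximal flank and 176 the distal flank. The maps come from srHC-seq of mouse hepatocytes, an assay that sonicates fixed chromatin and sorts the DNA by fragment length, since closed chromatin resists sonication and open chromatin shears easily. Each autosomal base bears 1 of 3 classes, closed (het), intermediate (int) or open (euch).

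The 15 samples fall into 3 groups of 5. Wild-type animals, 3 of them male and 2 female, were taken on postnatal day 14 (P14). Knockout animals of the same age, 2 male and 3 female, had the genotype Alb-Cre;Ezh1-/-;Ezh2f/f. These lack Ezh1 in every cell and in which Cre under the albumin promoter removes Ezh2 from hepatocytes and other cells in which that promoter is active. Ezh1 and Ezh2 are the alternative catalytic subunits of PRC2, which methylates lysine 27 of histone H3. Adult wild-type animals, again 2 male and 3 female, were 2 months old. All cells were hepatocytes isolated from perfused liver, and their purity could not be checked because the files hold no expression values. Each group has 1 map, read as a pool of its 5 mice. No difference below therefore has a replicate check, and no test was possible. The lists hold positions and a class only, and the sequencing depth is therefore unknown.

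Mup proteins are lipocalins that the adult mouse liver secretes in large amounts and that leave the body in urine, where they bind and release small volatile signals between animals. Their synthesis rises after weaning and depends on growth hormone and androgen, and for many members it is higher in males. The mix of sexes differed between the P14 wild-type pool and both other pools, so sex cannot be told apart from age or genotype in any comparison here.

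RefSeq lists 22 protein-coding Mup genes in a row on chromosome 4 of GRCm38.p6, and on the same chromosome 23 entries named as Mup pseudogenes. Of these entries, Mup-ps12 and Mup-ps16 are themselves listed as protein-coding and lie within the row, among its Mup genes. How many of the other pseudogene entries lie within the row was not counted. Mup4 is the first Mup gene of the row and Mup21 the last. The nearest protein-coding genes outside the row are Slc46a2, which encodes a solute carrier, before Mup4 and Zfp37, which encodes a zinc finger protein, after Mup21. Mup20, which encodes darcin, the male pheromone protein, is number 20, Mup3 number 21 and Mup21 number 22 in that order. The order comes from another build than the maps, so which genes lie inside the mm9 window, and at which position, was not checked, and no class is given for a single gene.

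How alike the copies are bears on the maps, because a read that matches several copies has no single place. Promoters of 14 of the 22 genes were in the RefSeq table, Mup3 and Mup21 among them. Over the 250 bases before the start, aligned in pairs, identity ran from 77.7 to 98.8% (median 92.3% over 91 pairs, 113 to 251 aligned positions). Of the genes from Mup7 (number 3 of the row) to Mup19 (number 18), 10 had a promoter sequence. These 10 were the most alike, with a median of 96.5% over their 45 pairs (90.3 to 98.8%). Against these, Mup3 and Mup21 reached a median of 86.2% (82.8 to 87.4%, 20 pairs), and Mup4 and Mup6, the first genes of the row, a median of 81.5% (77.7 to 91.5%, 20 pairs). Pairs were aligned over unlike lengths, so these medians do not rank the ends of the row. Against Mup7 the order was the reverse. Identity was 88.4% for Mup4 (146 positions) and 88.7% for Mup6 (151), but 84.1% for Mup3 (170) and 82.8% for Mup21 (174). Mup3 and Mup21 were 92.3% identical to each other, and Mup4 and Mup6 92.6%. This split into ends and middle was made after the identities had been seen.

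Mup7 had the highest median identity with the other genes (97.5%), though over only 113 to 174 aligned positions, where other pairs reached 251. The same promoter stretch is printed below for Mup7, for Mup11, the copy most like it, for Mup4 at one end of the row, and for Mup3 and Mup21 at the other. All are written 5′ to 3′ on the gene's own strand, which is the minus strand, and capitals mark bases that differ from Mup7. Their distance from the annotated start differs, from 1 to 144 bases in Mup7 to 107 to 250 bases in Mup11.
Mup7, chr4:60070477-60070619 (GRCm38.p6): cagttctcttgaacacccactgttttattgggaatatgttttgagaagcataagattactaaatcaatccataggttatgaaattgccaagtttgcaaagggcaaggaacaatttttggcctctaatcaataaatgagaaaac
Mup11, chr4:60662503-60662645 (GRCm38.p6): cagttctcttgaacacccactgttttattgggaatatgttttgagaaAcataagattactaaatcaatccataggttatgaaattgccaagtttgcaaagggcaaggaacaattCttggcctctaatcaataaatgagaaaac
Mup4, chr4:59960771-59960912 (GRCm38.p6): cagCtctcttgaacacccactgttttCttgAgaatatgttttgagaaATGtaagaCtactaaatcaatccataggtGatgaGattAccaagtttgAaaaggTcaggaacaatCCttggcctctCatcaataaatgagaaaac
Mup3, chr4:62087400-62087541 (GRCm38.p6): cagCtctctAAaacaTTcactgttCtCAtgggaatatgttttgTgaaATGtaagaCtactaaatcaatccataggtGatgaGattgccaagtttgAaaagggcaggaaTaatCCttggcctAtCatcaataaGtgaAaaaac
Mup21, chr4:62150918-62151059 (GRCm38.p6): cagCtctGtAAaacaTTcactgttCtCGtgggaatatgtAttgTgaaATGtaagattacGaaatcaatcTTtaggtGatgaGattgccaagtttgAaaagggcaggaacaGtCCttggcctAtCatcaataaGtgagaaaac
Mup11 differed from Mup7 at 2 of 143 bases, Mup4 at 15, Mup3 at 23 and Mup21 at 26, and the last 3 each also lacked 1 base of it. The TATA-like letters TATATAA, searched on both strands, were in 11 of the 14 Mup promoters and in 3.04% of all 32851 promoters of the table. This count depends on where starts are annotated. The match nearest the start was at -31 in Mup9 but at -8 in Mup21. In Mup7, which had no match, the stretch above ends 1 base before the start, so almost none of the sequence after it was searched. The letters TTCNNNGAA, the core of a STAT5 site, were in none of the 14 and in 7.02% of all, which says only that they are not in these 250 bases.

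**Figure D1:**
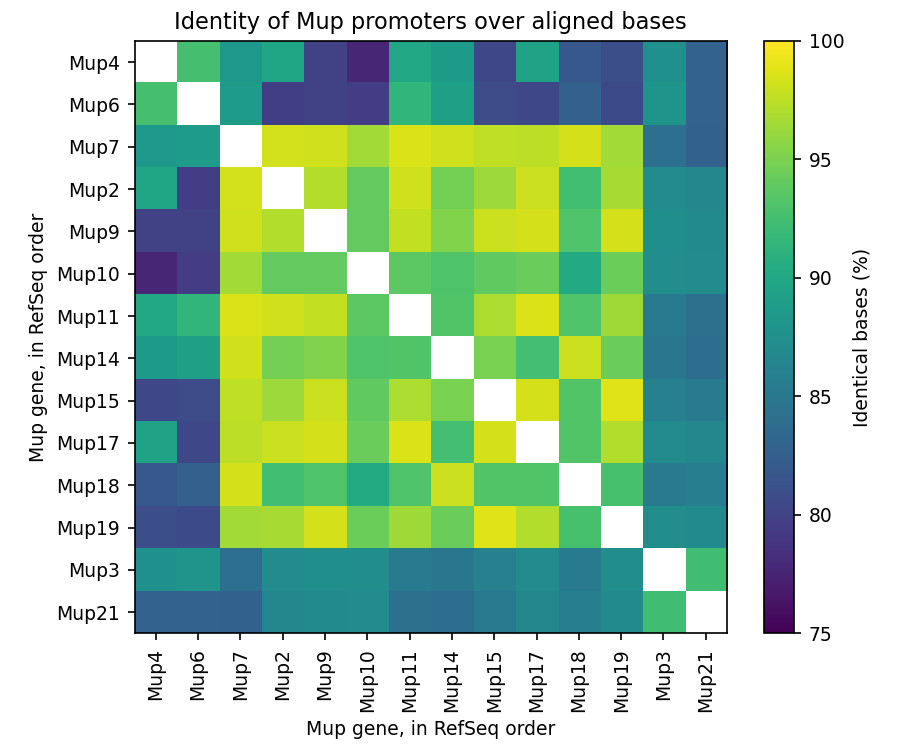
Identity of Mup promoters in pairs, as the percent of identical positions over the aligned part of the 250 bases before each start, with genes on both axes in RefSeq order and the diagonal left white. The 10 genes with a promoter sequence from Mup7 to Mup19 form a block of 90.3% or more, and Mup4, Mup6, Mup3 and Mup21 lie outside it.

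The Mup window was open in all 3 maps. Euch covered 80.3% of its bases (1686 kb) in P14 wild-type hepatocytes, 80.6% (1692 kb) in the P14 knockout and 87.9% (1846 kb) at 2 months. Over all autosomes the same shares were 42.7, 42.4 and 43.0%. Het covered 8.86% of the window (186 kb) in P14 wild type, 9.62% (202 kb) in the knockout and 3.24% (68 kb) at 2 months, against 45.4, 46.01 and 46.2% of the autosomes. Thus the window was already mostly euch at P14, and its het share at 2 months was the lowest of the 3 maps.

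Set among 1167 autosomal windows of the same length, laid end to end from each chromosome start, 10 had a higher euch share than the Mup window in P14 wild type, 17 in the knockout and 10 at 2 months. The median of those windows was 43.0, 42.7 and 44.4%. On chromosome 4, 1 of 72 windows was higher in P14 wild type, and none was higher in the knockout or at 2 months. These ranks describe 1 genome, whose windows are not replicates, and carry no p-value.

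**Figure D2:**
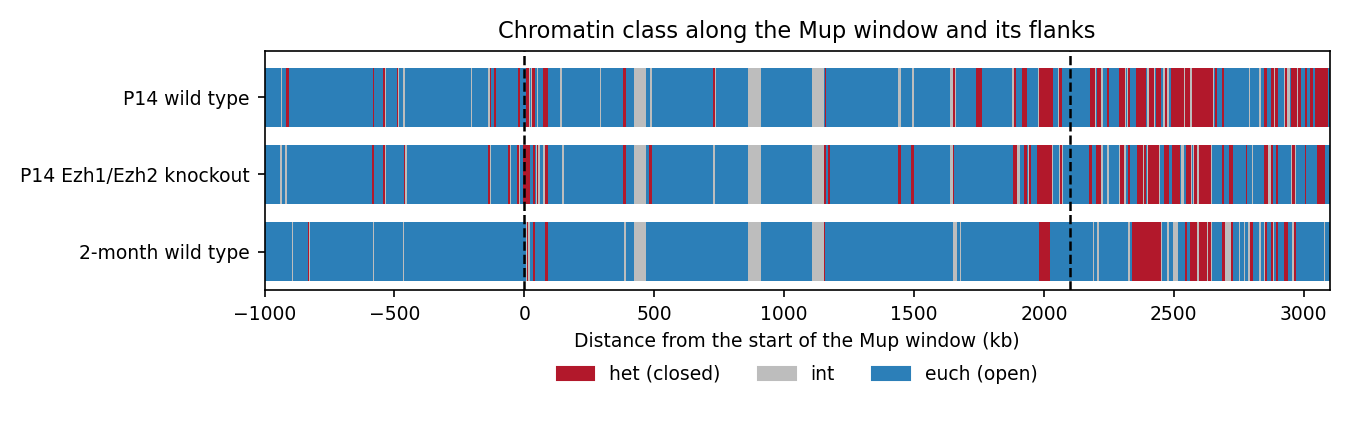
Chromatin class along the window and both flanks in each of the 3 maps, drawn to scale as distance in kb from the window's start, with dashed lines at its bounds (het red, int grey, euch blue). The window is mostly euch in each map, with 3 grey blocks of 48 kb in the same place in all, and het lies mainly towards both ends of the window and beyond its distal bound.

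The calls inside the window were interrupted by exactly 3 stretches that were int in all maps. They ran from 60322001 to 60370000, from 60762001 to 60810000 and from 61006001 to 61054000, each 48 kb long, and each was a whole int domain with the same edges in all 3 maps. No other base of the window was int in all 3, so the constant int share was 6.86% (144 kb), against 3.41% of the autosomes and 0 kb in either flank. The autosomal share includes 18 runs of 3000 kb. The median of the 1167 autosomal windows was 0.286%, and 60 of them had a higher share than the Mup window. The length was not peculiar to the Mup genes: of 163 constant int runs of at least 10 kb on the autosomes, 87 were exactly 48 kb long, on 16 chromosomes, and 14 of them lay on chromosome 4. Intermediate chromatin, an assembly gap and sequence with no uniquely placed read cannot be told apart in these lists. How reads that match several copies were placed is not given in the sources used here, and its part in the euch share was not tested. Without the 3 stretches the euch share was 86.2% in P14 wild type, 86.5% in the knockout and 94.4% at 2 months. No window of 1142 was then higher in P14 wild type, while 6 were in the knockout and 1 at 2 months.

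Euch ran in long domains. The longest in P14 wild type was 280 kb, from 61060001 to 61340000, followed by 236 kb from 60390001 to 60626000 and 196 kb from 60810001 to 61006000. In the knockout the longest was 264 kb, from 61076001 to 61340000, then the same 236 kb domain, and then 228 kb from 60052001 to 60280000. At 2 months the longest was 490 kb, from 61058001 to 61548000, over which the P14 wild type had 3 euch domains and the knockout 4. The next, of 468 kb, ran from the proximal flank to 59906000, and the third, of 392 kb, filled the whole stretch between the first and the second constant int block, from 60370001 to 60762000. Domains of all classes numbered 52 in P14 wild type, 51 in the knockout and 25 at 2 months. Per Mb that was 24.8, 24.3 and 11.9, against 24, 23 and 12 in the proximal flank and 49.1, 45.1 and 34.5 over the autosomes.

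Het was not spread evenly along the window. The division that follows was made after the map had been seen. The first 100 kb held 44 kb of het in P14 wild type, 46 kb in the knockout and 22 kb at 2 months. The last 400 kb held 114, 98 and 42 kb in the same order. The 1600 kb between them held 28 kb (1.75%), 58 kb (3.63%) and 4 kb (0.25%). In P14 wild type the middle thus held 15.1% of the window's het on most of its length, and in the knockout 28.7%.

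The longest het domain lay at the distal end in every map, at nearly the same place. It ran from 61882001 to 61934000 (52 kb) in P14 wild type, from 61874001 to 61930000 (56 kb) in the knockout and from 61882001 to 61924000 (42 kb) at 2 months. In P14 wild type the next longest were 2 domains of 20 kb, from 59972001 to 59992000 and from 61640001 to 61660000. In the knockout they were 24 kb from 59896001 to 59920000, across the proximal bound, and 18 kb from 61780001 to 61798000. At 2 months only short ones followed, with 12 kb from 59978001 to 59990000 and 6 kb from 59934001 to 59940000. With 100 kb trimmed from each end of the window, the het share was 5.05% in P14 wild type, 6.32% in the knockout and 1.16% at 2 months. Het in all 3 maps covered 66 kb of the window, 3.14%, against 31.5% of the autosomes.

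**Figure D3:**
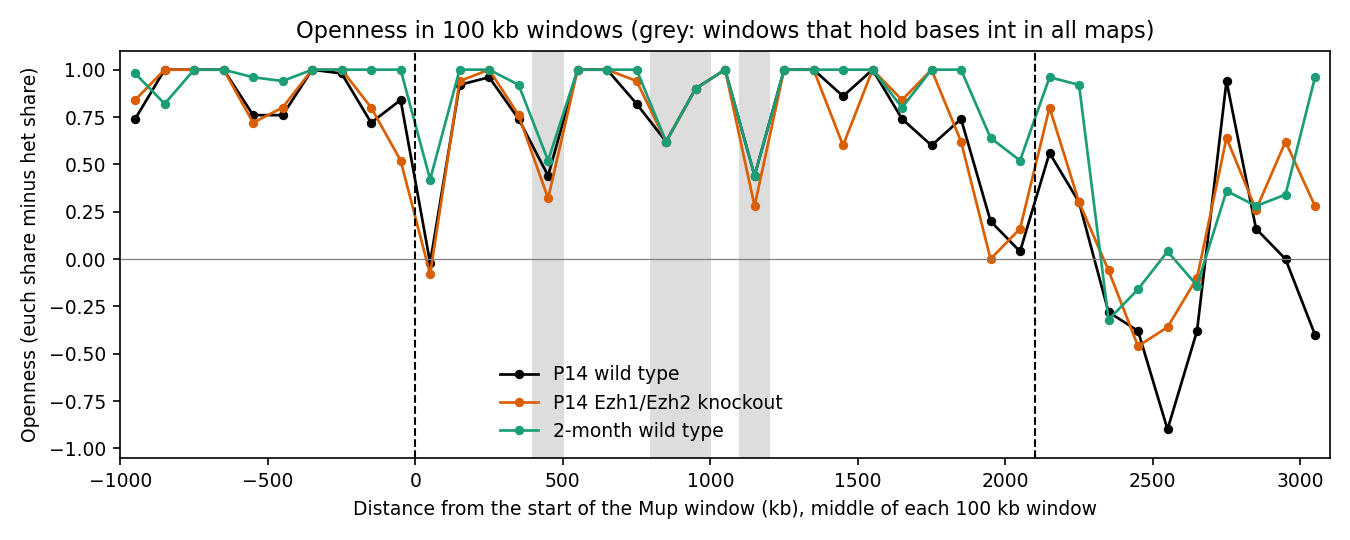
Openness, the euch share minus the het share, in windows of 100 kb against distance in kb from the start of the Mup window, 1 line per map, with dashed lines at the bounds and grey where a window holds bases that are int in all maps. At both ends of the Mup window the 2-month line is the highest, with 0.42 in the first window against -0.02 in P14 wild type and -0.08 in the knockout.

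Age was the first comparison, P14 against 2-month wild type, which asks how closed and open chromatin of hepatocytes is rearranged as the liver matures. Little of the window had another class at 2 months, and nearly all that did was more open. Another class was called for 9.71% of its bases (204 kb), where the autosomal background was 27.4%. Bases moved towards euch over 194 kb (9.24%, background 13.6%) and towards het over 10 kb (0.476%, background 13.7%). Of 186 kb that were het at P14, 96 kb (51.6%) were euch, 24 kb int and 66 kb (35.5%) still het at 2 months. Over the autosomes 14.2% of het bases were euch at 2 months. In the flanks the share was also above that, with 91.3% of 46 kb in the proximal and 43.8% of 470 kb in the distal flank. Without bins within 2 kb of an edge between classes in the P14 wild type, 5.78% of the window changed, 5.47% towards euch, and the background was not recomputed for this setting. Of 1686 kb that were euch at P14, 1676 kb (99.4%) were still euch, against 77.3% over the autosomes. Het domains were shorter in the window, with a mean of 15.5 kb against 27.1 kb over the autosomes, and the part of that in the higher share of opened het bases was not tested.

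Domain by domain, 7 of the 12 het domains of the P14 wild type held no het base at 2 months (58.3%, against 26.2% of 41439 on the autosomes), and the other 5 held some. The 7 lay between 60280001 and 61970000 and were 6 to 20 kb long. The 5 het domains of 2 months all overlapped het of the P14 wild type, and 4 of them lay wholly within it. Over the autosomes 24965 of 28510 such domains overlapped it and 9868 lay wholly within it. Het domains of 2 months had a mean of 13.6 kb in the window against 40.1 kb over the autosomes. The part of domain length in these counts, and in those of the P14 het domains, was not tested. The longest stretches that moved towards euch were 20 kb from 61640001 to 61660000, 20 kb from 61814001 to 61834000 and 16 kb from 61778001 to 61794000. The first 2 were wholly het at P14, and the third was 10 kb het and 6 kb int. All were wholly euch at 2 months. In the other direction there were 3 stretches, of 4 kb from 61560001 to 61564000 and from 61578001 to 61582000, which went from euch to int, and of 2 kb from 61054001 to 61056000, next to a constant int block, which went from euch to het.

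In 21 windows of 100 kb, openness was higher at 2 months in 12, equal in 9 and lower in none. The differences ran from 0 to 0.48, with a median of 0.06. The 0.48 was in the last window, from 0.04 at P14 to 0.52 at 2 months, and the first and the last but 1 window each differed by 0.44. For the window as a whole, openness was 0.714 at P14 and 0.847 at 2 months, a difference of 0.132. Of the 1167 autosomal windows, 411 had a larger difference, so this rise lay well within the range of other windows, whose 5th and 95th percentiles were -0.546 and 0.366. Openness cannot exceed 1, so a rise as large as that 95th percentile was not possible from 0.714. The rank of the rise is therefore limited by the high value at P14. The share of bases with another class was low among those windows, since 1119 of the 1167 had a larger one.

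The second comparison, knockout against wild type at P14, asks what loss of Ezh1 and Ezh2 does at one age. Here too few bases changed, and those that did went both ways. Another class was called for 9.43% of the window (198 kb), where the background was 24.6%. Towards euch went 94 kb (4.48%, background 12.1%) and towards het 104 kb (4.95%, background 12.5%), a net of -0.476 percentage points. Without bins next to edges, as above, the shares were 5.26% in all, 2.21% towards euch and 3.05% towards het. Of the 1167 autosomal windows, 1109 had a larger share of another class. Of the wild type's 186 kb of het, 128 kb (68.8%) were still het in the knockout, 22 kb int and 36 kb (19.4%) euch. Over the autosomes 80.6% of het bases were still het and 11.0% were euch. Of its 1686 kb of euch, 1620 kb (96.1%) were still euch and 36 kb (2.14%) were het, against 79.9 and 12.8% over the autosomes.

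Openness of the window was 0.714 in wild type and 0.710 in the knockout. It was higher in the knockout in 7 of the 21 windows of 100 kb, lower in 6 and equal in 8, with differences from -0.26 to 0.4. The highest was in the window that starts 1700 kb from the bound, where wild type had 0.6 and the knockout 1. That window holds the longest stretch that moved towards euch, the 20 kb from 61640001 to 61660000, which was wholly euch at 2 months as well. The lowest was in the window that starts at 1400 kb, with 0.86 in wild type and 0.6 in the knockout. There the knockout had 2 het domains of 10 kb, from 61340001 to 61350000 and from 61388001 to 61398000, neither of which was het in either wild-type map. Most of each was int in P14 wild type, which had int from 1440 to 1448 kb and from 1492 to 1498 kb. In all, 6 of the 16 het domains of the knockout held no het base of the P14 wild type (37.5%, against 15.0% over the autosomes), and they were 4 to 10 kb long. Het domains of the knockout had a mean of 12.9 kb in the window against 29.9 kb over the autosomes. The part of this length in the higher share was not tested. The longest stretches that moved towards het were 12 kb from 61794001 to 61806000 and 12 kb from 61840001 to 61852000, both wholly euch in the wild type of both ages. In the knockout the first was 4 kb het and 8 kb int, and the second 6 kb het and 6 kb int. Next came 10 kb from 59950001 to 59960000, which was 4 kb int and 6 kb euch in wild type and 4 kb het and 6 kb int in the knockout. Towards euch, the next longest were 12 kb from 60626001 to 60638000 and 8 kb from 59924001 to 59932000, both wholly euch at 2 months. In the knockout the 12 kb were 6 kb int and 6 kb euch, and the 8 kb were wholly euch.

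**Figure D4:**
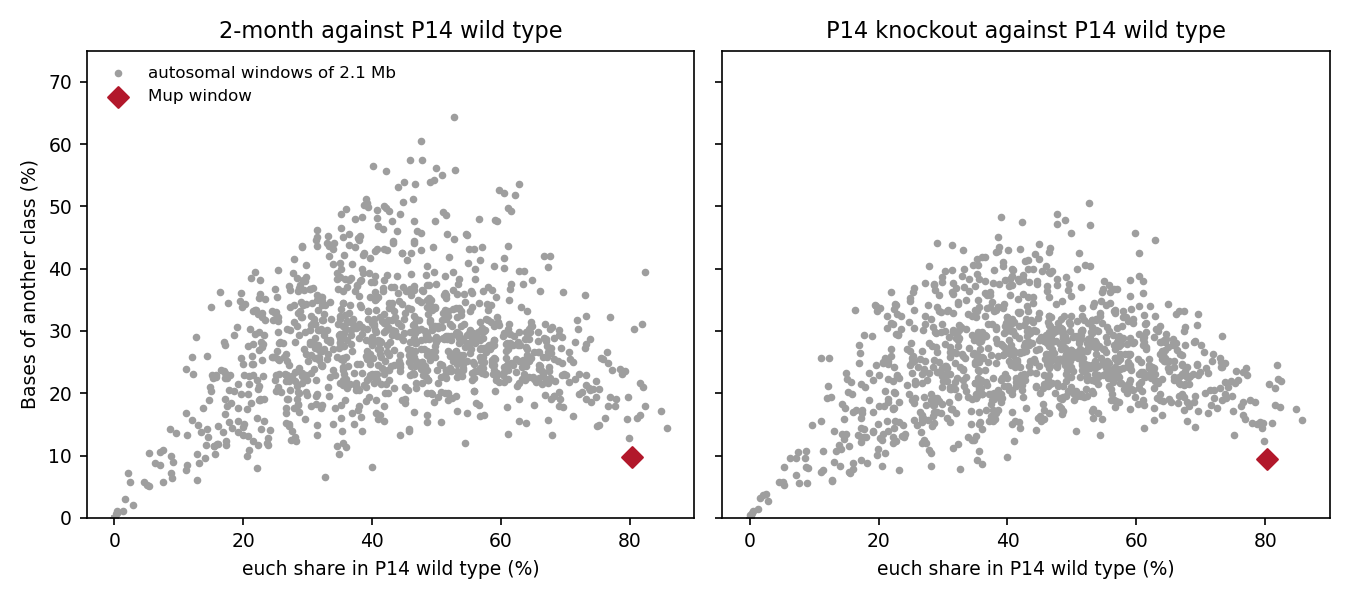
Share of bases with another class than in the P14 wild type against the euch share of the P14 wild type, both in percent, for 1167 autosomal windows of 2.1 Mb (grey) and the Mup window (red), at 2 months on the left and in the P14 knockout on the right. The Mup window lies at 80.3% euch with 9.71% and 9.43% changed, below most windows.

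The P14 wild-type map serves as the reference in both comparisons, so no overlap between them is read as a result. All 3 maps had the same class in 86.8% of the window, against 65.0% of the autosomes. The 2-month map alone differed in 80 kb (3.81%, autosomes 10.4%), the knockout alone in 74 kb (3.52%, autosomes 7.60%) and the P14 wild type alone in 64 kb (3.05%, autosomes 11.8%). Het in both P14 maps covered 128 kb (6.10%, autosomes 36.6%), of which 42 kb were euch at 2 months (2% of the window, 2.82% of the autosomes). Over the autosomes 69598 of the 905128 kb that were het in both P14 maps were euch at 2 months, a smaller part than in the window. Het at 2 months that was not het in the P14 wild type covered 2 kb (0.0952%, autosomes 10.9%).

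In euch share the flanks differed from the window and from each other. The proximal flank, from 58900001 to 59900000, had a euch share of 92.6% in P14 wild type, 91.4% in the knockout and 97.4% at 2 months, above the window. The order turned round with a proximal flank of 2 Mb, whose euch shares of 64.0, 68.1 and 66.9% were below those of the window. The het share of the proximal flank of 1 Mb was 4.60% in both P14 maps and 0.4% at 2 months. The distal flank, from 62000001 to 63000000, was near the autosomal level at P14, with 43.2% euch and 47.0% het in wild type. Its euch share was 55.0% in the knockout and 59.8% at 2 months, and its het share 35.8 and 27.4%. Another class was called at 2 months for 8.40% of the proximal and 45.0% of the distal flank, and in the knockout for 9.40 and 30.8%. Openness of the distal flank was -0.038 in P14 wild type, 0.192 in the knockout and 0.324 at 2 months. In the distal flank the knockout was thus more open than the wild type of its age by 0.23, while inside the window the difference was -0.00476, and the difference between flank and window was not tested. Within the distal flank 8 of 10 windows of 100 kb were more open at 2 months and 2 less, and 7 were more open in the knockout and 2 less. Domains in the distal flank numbered 66 per Mb in P14 wild type, 59 in the knockout and 51 at 2 months, above the 24.8, 24.3 and 11.9 of the window. In the proximal flank they numbered 24, 23 and 12 per Mb, near the values of the window. All 3 maps had the same class in 86.8% of the proximal and 46.6% of the distal flank, where the window had 86.8%.

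**Figure D5:**
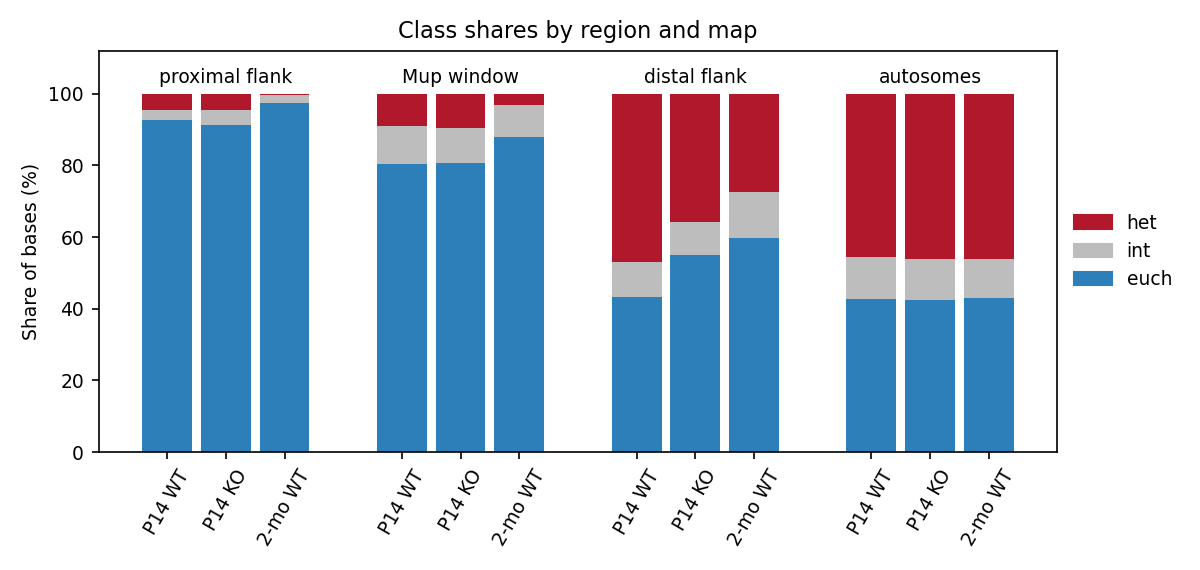
Share of bases in each class, in percent, for the proximal flank, the Mup window, the distal flank and all autosomes, with 1 stacked bar per map (WT wild type, KO Ezh1/Ezh2 knockout, 2-mo 2 months). Euch covers 80.3 to 87.9% of the Mup window and 43.2 to 59.8% of the distal flank, while the autosomes stay between 42.4 and 43.0%.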

How the data were processed

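The authors deposited 9 lists of mm9 intervals, 1 for each of 3 classes in each of 3 groups, with a class letter and no other measurement than start and end. The submitters' processing notes name bcl2fastq 2.19.0.316, STAR 2.4.2a and bedtools. The domain caller, its thresholds and any scaling are not given in the sources used here. All 5 samples of a group name its lists in their labels, except that 1 female of 2 months does not name the euch list, so pooling is an inference. Lists were read into bins of 2 kb, on whose grid every domain edge of chromosome 4 lay, with no bin in 2 classes and none unlisted on the autosomes. Shares, changes, domains, constant int runs (at least 10 kb), windows of 100 kb and ranks among autosomal windows were computed in Python 3.11.15 (SciPy 1.17.1, NumPy 2.4.6, pandas 2.3.3; plots by Matplotlib 3.10.9). Towards euch means any step to a more open class, and towards het the opposite. Promoters were aligned locally with Biopython 1.88. The calculation was tested on simulated data. Stretches were named by rule (all constant int runs, the 3 longest het and euch domains per map and the 3 longest changing stretches per direction), and others were singled out after their values were seen. Genes were named by rule too: Mup3, Mup20, Mup21, the ends of the row and their neighbours; other Mup genes were named after their identities were seen. The window, its members and these settings were chosen with earlier results of these data known.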

Additional observations from a re-analysis of the deposited data

How the results depend on the processing

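Of 108 values under alternative settings, 66 stayed within the binomial 95% interval of the reported one (counting error over bins or windows only, for net changes a normal one) and 42 did not. With 100 kb trimmed from each end, euch shares were 83.9% in P14 wild type and 84.3% in the knockout, and het shares 5.05, 6.32 and, at 2 months, 1.16%; 7.68% of bases changed class with age (7.16% towards euch, net 6.63 points) and 7.68% in the knockout. The het share at 2 months thus fell from 3.24%, by construction, since much het lies at the ends. Without constant int runs of at least 10 kb, or without every base int in all 3 maps, which are the same bases here, euch shares were 86.2, 86.5 and 94.4%. Without domains under 5 kb, changes were 7.62% with age (7.42% towards euch) and 7.12% in the knockout (3.17% towards euch). Without bins that lie 2 kb or less from an edge between classes in the P14 wild type they were 5.78% with age (5.47% towards euch, net 5.15 points) and 5.26% in the knockout (2.21% towards euch and 3.05% towards het). The cause of these shifts was not tested. The euch share of a proximal flank of 2 Mb was 64.0% in P14 wild type, 68.1% in the knockout and 66.9% at 2 months, below the Mup window, whereas the flank of 1 Mb lay above it; at 2 months it was 98.8% for 0.5 Mb. For the distal flank it was 32.1, 40.1 and 42.1% over 2 Mb, and 38.0% in P14 wild type and 46% in the knockout over 0.5 Mb. The share of windows with more euch than the Mup window was 0.857% in P14 wild type, 1.46% in the knockout and 0.857% at 2 months. Without bases int in all maps it was 0, 0.525 and 0.0876%, and on chromosome 4 alone 0% in the knockout and at 2 months. Of 1167 windows, 1119 changed more with age and 1109 in the knockout. The share for age, 95.9%, was 97.2% on chromosome 4 alone and 97.5% without bases int in all maps, and for the knockout 97.4% without those bases. No paired analysis was possible because each group has 1 list per class, read here as a pool of its samples, and for that reason no replicate could be left out.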
